A study of Mus musculus with 8 samples.

Results

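The *Ms4a* genes encode small proteins that cross the membrane 4 times and lie side by side on mouse chromosome 19. Of these genes, 5 were followed here, *Ms4a6b*, *Ms4a6c*, *Ms4a6d*, *Ms4a7* and *Ms4a3*, through every probe set annotated to them and to no other gene. A probe set is the group of short oligonucleotides that reads a transcript on an Affymetrix array. The 5 genes had 10 probe sets, out of 18193 genes and 45037 probe sets in all. They were chosen by the measured values of this same comparison, in which *Ms4a6b* and *Ms4a7* read much higher in the Cre+ arrays, so their differences between the genotypes are described and not tested.

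Brain RNA of *Cre+, Rest GTi/GTi* embryos and of *Rest GTi/GTi* control embryos was measured at E12.5 on 1-colour Affymetrix mouse arrays, 4 arrays per genotype labelled as biological replicates, on a C57/BL6 background. Both genotypes were homozygous for an inverted gene trap (GTi) in an intron of *Rest*, ahead of its first coding exon. In the Cre+ embryos a Cre recombinase driven by the *Nestin* promoter, which is active in neural progenitors, turns the trap round so that it stops the *Rest* transcript, and the controls carried no Cre. Cre and the loss of REST therefore cannot be told apart, and the sources do not say how many embryos went into an array, so the spread between arrays may be technical in part.

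Best known in the family is *Ms4a1*, the B cell antigen CD20. *Ms4a2* is the beta chain of the IgE receptor of mast cells and basophils, and *Ms4a3* is used to mark granulocyte-monocyte progenitors. *Ms4a6b*, *Ms4a6c*, *Ms4a6d* and *Ms4a7* are transcribed in macrophages and monocytes. In the mouse brain, *Ms4a7* is widely used to tell macrophages of the brain borders (meninges, choroid plexus and perivascular spaces) from adult microglia, in which it is low.

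In the RefSeq annotation of GRCm38.p6, the cluster spans chr19:10962289-11640851 (678563 bases) and holds 21 *Ms4a* genes and 1 other protein-coding gene. Only protein-coding genes were counted, here and for the places along the chromosome below. The followed genes lie at chr19:11321039-11336146 (*Ms4a7*), chr19:11469353-11487182 (*Ms4a6c*), chr19:11518559-11530403 (*Ms4a6b*), chr19:11586606-11604804 (*Ms4a6d*) and chr19:11629499-11640851 (*Ms4a3*). Where the probe sets lie within the transcripts is not given in the sources used here. RefSeq promoter sequence was matched for 4 of the 5 genes, *Ms4a6d* being without an entry in the table. The 250 bases before the start that the promoter table gives *Ms4a6b* and *Ms4a6c*, at chr19:11518309-11518558 and chr19:11469118-11469367 on the plus strand, are shown because both genes read higher on the Cre+ arrays and their windows share sequence, with capitals marking every identical run of 15 bases or more:

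Ms4a6b: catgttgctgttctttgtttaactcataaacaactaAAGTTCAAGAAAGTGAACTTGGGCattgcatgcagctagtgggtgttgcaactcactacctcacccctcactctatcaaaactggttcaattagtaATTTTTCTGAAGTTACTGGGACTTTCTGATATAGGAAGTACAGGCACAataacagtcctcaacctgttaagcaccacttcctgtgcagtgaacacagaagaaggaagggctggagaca
Ms4a6c: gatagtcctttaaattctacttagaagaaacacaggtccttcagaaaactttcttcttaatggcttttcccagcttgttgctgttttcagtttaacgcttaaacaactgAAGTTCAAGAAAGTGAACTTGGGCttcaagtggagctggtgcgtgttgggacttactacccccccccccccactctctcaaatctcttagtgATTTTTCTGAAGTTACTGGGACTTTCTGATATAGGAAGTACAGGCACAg

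The shared runs were 24 and 48 bases long and covered 72 of the 250 bases in each window. The longer run began 118 bases before the start of *Ms4a6b* and 49 bases before that of *Ms4a6c*, both as the promoter table sets them. For *Ms4a6c* that start lies inside the gene span given above, so the last 15 bases of its window, and the end of the run, fall within the span. Each run was found, on either strand, in the windows of these 2 genes alone among 32851 promoter windows. Over the 171 pairs of the 19 *Ms4a* starts in the table, the longest identical run had a median of 8 bases, and the next longest, between *Ms4a4b* and *Ms4a4c*, had 20.

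The windows of *Ms4a7* share no such run. The table gives *Ms4a7* a pair of starts, and the window of the upstream start, chr19:11336147-11336396 on the minus strand, is shown because it alone among the windows of the followed genes held a match to a motif searched, with the match in capitals:

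Ms4a7: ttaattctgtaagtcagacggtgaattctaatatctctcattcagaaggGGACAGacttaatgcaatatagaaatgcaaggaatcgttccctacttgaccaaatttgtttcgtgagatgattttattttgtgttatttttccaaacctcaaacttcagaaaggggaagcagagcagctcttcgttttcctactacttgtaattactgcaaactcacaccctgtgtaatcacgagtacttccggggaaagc

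The motifs were searched on both strands, without regard to overlap with each other. They included GAGGAAGT and AGAGGAA, which are forms of the ETS site that the macrophage factor PU.1 binds. Also searched were GGAANNGAA (an ETS and IRF composite), TTGCNNAA (C/EBP), CACGTG (a form of the E box) and TATAAA. The remaining motifs were CAGCACC and GGACAG, the left and right part of RE1, the element bound by REST. The capitals are GGACAG, 201 bases before the start, and 18.7% of all windows hold this motif. The other motifs are in 2.44% (GAGGAAGT), 8.55% (AGAGGAA), 6.99% (GGAANNGAA), 9.56% (TTGCNNAA), 6.02% (CACGTG), 5.73% (CAGCACC) and 12.4% (TATAAA) of windows, and 0 of the 5 windows of the followed genes held any of them. A match or its absence describes these letters only. The GC content of the windows was 42% for *Ms4a6b*, 42.4% for *Ms4a6c*, 38.8% and 30.4% for *Ms4a7* and 43.6% for *Ms4a3*, against a median of 52.4% over all windows.

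Values below are intensities after quantile normalization between arrays, and differences are of log2(intensity + 16), *Cre+, Rest GTi/GTi* minus control, with the standard error (SE) of the difference. The added constant understates differences of dim probe sets, and the mean of 30.6% of all probe sets lay below it. Some arrays stood apart from others of their genotype. *Rest* read 163.1, 216.7, 84.4 and 133.7 on the Cre+ arrays, replicates 1 to 4, and 170.1, 271.8, 211.1 and 198.3 on the control arrays, so the array labelled Cre+ replicate 2 lay above 3 of the controls. *Xist* was high (7875.1 and 8247.1) on control replicates 2 and 3 alone, the pair with the signal of females. Mesenchymal genes were high on Cre+ replicates 1 and 2 (*Col3a1* 4864.4 and 4571.2, against 231.7 and 134.8 on Cre+ replicates 3 and 4 and 114.7 to 555 on controls). The summed intensity of 9 brain markers ran from 31413.1 to 36497.2 on Cre+ arrays and from 34128 to 36464 on controls, with 0 of the 9 called.

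The genes that led to the choice, *Ms4a7* and *Ms4a6b*, come first. The brightest probe set of *Ms4a7* (1424754_at) read 73.2, 81.7, 78.6 and 82.7 on the Cre+ arrays, against 21, 5.3, 12.8 and 11.9 on the controls. The Cre+ values lay close together, while the controls were low, 3 of 4 below the added constant. The lowest Cre+ array was 52.3 units above the highest control. The means were 79.07 ± 4.25 in Cre+ brain and 12.74 ± 6.41 in control brain (SD, n = 4 each), a ratio of 6.21, and the log2 difference was 1.75 (SE 0.17). Ranked within each array, this probe set stood at a percentile of 54, 55.7, 55.1 and 55.9 on the Cre+ arrays, against 34.8, 16.8, 26.9 and 25.8 on the controls.

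The main probe set of *Ms4a6b* (1418826_at) read 98, 86.7, 79.5 and 98.4 on the Cre+ arrays, against 36.2, 34.4, 30.8 and 39.4 on the controls, with a gap of 40.1 units between the groups. The means were 90.64 ± 9.18 in Cre+ brain and 35.2 ± 3.58 in control brain, a ratio of 2.58 and a log2 difference of 1.06 (SE 0.08). Its second probe set (1439956_at) was dim, with 11.4, 8.8, 8.3 and 12.2 on Cre+ arrays and 2.5, 2.8, 6 and 6.1 on controls. These groups did not overlap either, but every value lay below 16, and the log2 difference was 0.37 (SE 0.09).

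*Ms4a6c* gave a like picture on its brighter probe set. Whether the sequence that its promoter window shares with that of *Ms4a6b* has a part in this was not tested. 1450234_at read 59.2, 66.9, 45.4 and 61.8 on the Cre+ arrays, against 23.3, 19.6, 31.2 and 32.4 on the controls. The closest arrays of the 2 genotypes, Cre+ replicate 3 and control replicate 4, were 13 units apart. The means were 58.36 ± 9.19 in Cre+ brain and 26.63 ± 6.15 in control brain, a ratio of 2.19 and a log2 difference of 0.81 (SE 0.14). The other probe set of *Ms4a6c* (1457725_at) showed no separation, with 19.2, 16.8, 5.4 and 14.8 on Cre+ arrays and 17.9, 4.8, 7.4 and 19.4 on controls. Its log2 difference was 0.10 (SE 0.25), so the probe sets of this gene disagree.

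*Ms4a6d* was read by 3 probe sets. On 1419599_s_at, whose suffix marks probes that may read more than 1 transcript, the Cre+ arrays had 27.6, 32.6, 46.2 and 55.3 and the controls 15.6, 14.6, 12 and 17.5, a log2 difference of 0.84 (SE 0.17). On 1419598_at the Cre+ arrays had 24.1, 22.9, 27.1 and 18.4 and the controls 0.8, 0.6, 0.8 and 4.8, a log2 difference of 1.14 (SE 0.10). The groups were apart on each, yet the order of the Cre+ arrays was not shared: replicate 4 was the highest on 1419599_s_at and the lowest on 1419598_at. The third, 1449539_at, lay between 0.1 and 0.5 on all 8 arrays, near the lower end of the scale. *Ms4a6b*, *Ms4a6c* and *Ms4a6d* are close relatives, and how far their probes hybridise with each other's transcripts was not tested.

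*Ms4a7* has a second, dim probe set (1445365_at), which read 8.8, 7.2, 1.7 and 14.7 on Cre+ arrays and 2, 1.3, 0.3 and 6.1 on controls. The genotypes overlapped there and the log2 difference was 0.37 (SE 0.19). *Ms4a3*, the marker of granulocyte-monocyte progenitors, was the member whose brightest probe set did not separate the genotypes. It read 18.7, 25, 25.3 and 27.8 on Cre+ arrays and 26.4, 27.8, 29.2 and 16.1 on controls, with means of 24.23 in Cre+ brain and 24.87 in control brain and a log2 difference of -0.02 (SE 0.13).

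**Figure D1:**
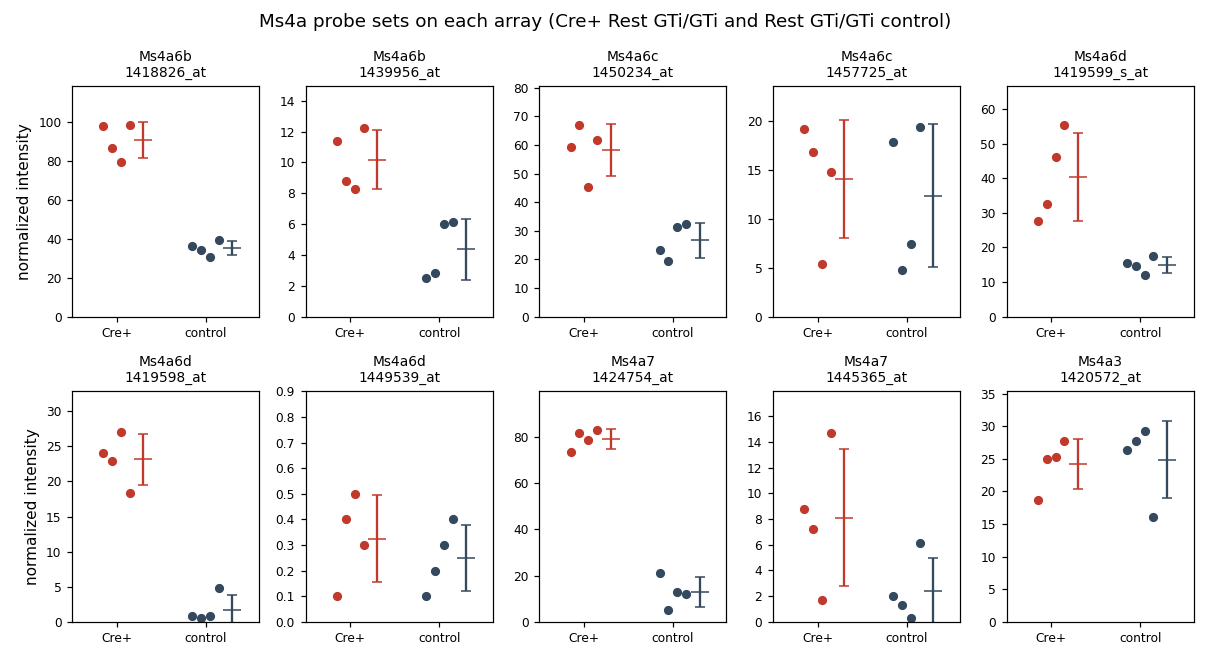
Normalized intensity (linear axes from 0, scaled per panel) of the 10 probe sets on the 4 *Cre+, Rest GTi/GTi* arrays (red, left) and the 4 control arrays (blue, right), with the mean ± SD beside the points. In 6 panels every red point is above every blue point, and *Ms4a7* 1424754_at has a gap of 52.3 units.

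In all, every Cre+ array was above every control for 6 of 10 member probe sets and, by the brightest probe set, for 4 of 5 genes. Among all probe sets this held for 840 (1.87%), and among all genes for 452 (2.48%), while every Cre+ array was below every control for 962 probe sets (2.14%) and 0 of the members. Since this contrast chose the members, nothing is read from these counts. Of the members, 9 probe sets had a log2 difference above 0 and 5 had a mean under 16. The median over the 5 genes was 0.84, and that over all genes was -0.0014.

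**Figure D2:**
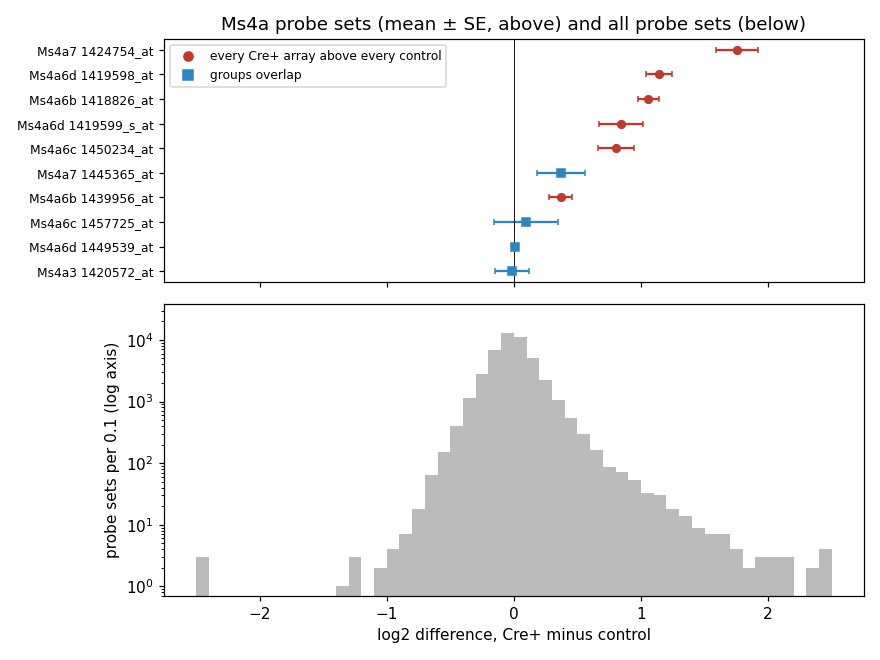
Above, the log2 difference (Cre+ minus control) ± SE of each member probe set, red circles where the arrays of the genotypes do not overlap. Below, the number of probe sets per 0.1 of log2 difference among all 45037, on a log axis, the end bars holding the values beyond them too. *Ms4a7* 1424754_at was 19th from the largest rise, and *Ms4a6d* 1419598_at, *Ms4a6b* 1418826_at, *Ms4a6d* 1419599_s_at and *Ms4a6c* 1450234_at were 92nd, 124th, 227th and 260th.

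The other genes of the family were tested, and their counts were near the shares over all genes given below. Since the members were chosen by this same comparison, no contrast with them is read from these counts. Of 17 other *Ms4a* genes listed, 12 had a probe set, and 0 were called by limma in either direction at an adjusted p under 0.05, with 1 at an unadjusted p under 0.05 and 0 called by the methods' t-test. Over all genes, 39 were called higher (0.214%) and 2 lower (0.011%), 1268 (6.97%) had an unadjusted p under 0.05 in either direction, and over probe sets 60 were called higher (0.133%) and 3 lower (0.00666%). The gene at the unadjusted threshold was *Ms4a8a*, with 8.7, 12.2, 8 and 13.5 on Cre+ arrays and 5, 4.8, 8.3 and 8.4 on controls, a log2 difference of 0.23 (limma adjusted p = 0.718). The median log2 difference of the 12 was -0.01, with 5 above 0 and 7 below.

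Most of these genes were dim in both genotypes, so small differences in them cannot be read. The mean of 11 of the 12 was under 16, the exception being *Ms4a15* with 24.47 in Cre+ brain and 23.68 in control brain. *Ms4a1*, the CD20 gene of B cells, averaged 8.32 in Cre+ brain and 10.07 in control brain, with a log2 difference of -0.08 (SE 0.19). *Ms4a2*, the IgE receptor chain, averaged 2.47 in Cre+ brain and 1.76 in control brain. *Ms4a4b*, *Ms4a4c* and *Ms4a4d*, which lie among the members on the chromosome, had log2 differences of 0.05, -0.01 and -0.04. Those of *Ms4a10*, *Ms4a13*, *Ms4a18*, *Ms4a19* and *Ms4a20* were 0.32, -0.11, -0.02, -0.01 and -0.20.

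Among the protein-coding genes along the chromosome, *Ms4a6c*, *Ms4a6b* and *Ms4a6d* follow each other with only *Gm8369* and *Ms4a4d* between them. *Gm8369* averaged 4.88 in Cre+ brain and 3.02 in control brain, and *Ms4a4d* 2.60 in Cre+ brain and 3.07 in control brain, neither called. *Ms4a7* lies apart from them, between genes without a probe set. Of the 11 measured genes that are not *Ms4a* genes, within the cluster or up to 5 places from it, 0 were called by limma and 2 had an unadjusted p under 0.05, with log2 differences from -0.32 (*Oosp1*, an oocyte-secreted protein gene) to 0.39 (*Cblif*, gastric intrinsic factor). Of the neighbours well above the constant, *Prpf19*, a splicing factor, was at 0.06 (SE 0.04), *Mrpl16*, a mitochondrial ribosome gene, at 0.04 (SE 0.06), *Ccdc86* at 0.06 (SE 0.12) and *Tmem109* at 0.21 (SE 0.07), and those of *Zp1*, *Ptgdr2*, *Oosp2* and *Oosp3* ran from -0.03 to 0.06.

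**Figure D3:**
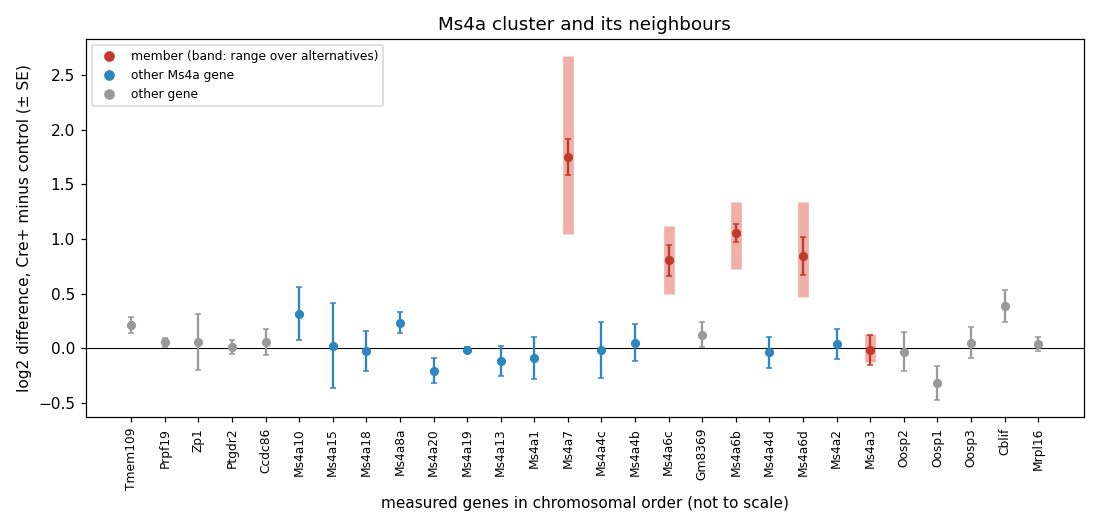
Log2 difference (*Cre+, Rest GTi/GTi* minus control, ± SE) of each measured gene from *Tmem109* to *Mrpl16* in the order of the chromosome, by brightest probe set. Pale bands give the range of a member over all alternatives of the processing. *Ms4a7* was at 1.75, *Ms4a6c* at 0.81, *Ms4a6b* at 1.06 and *Ms4a6d* at 0.84, and the rest lie between -0.32 and 0.39. Since this comparison chose the members, no contrast with the rest is read from the figure.

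*Tmem176a* and *Tmem176b* encode distant relatives of the family with the same 4 membrane spans, and are used as markers of several myeloid cells. Their log2 differences were 0.43 (SE 0.23, limma adjusted p = 0.745) and 0.14 (adjusted p = 0.813), so neither was called, and for both the genotypes overlapped.

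To place the members beside cell types, marker lists were read on the same arrays. The lists were chosen with earlier results of these data known, so their counts are a description and no independent test. Of 20 macrophage markers, 19 were measured, and limma called 10 of them higher and 0 lower, against 0.214% of genes called higher overall. The median log2 difference was 1.17, and on 17 of the 19 every Cre+ array was above every control. The summed intensity of the list was 2659.5 to 2936.4 on Cre+ arrays and 1023.8 to 1170.5 on controls. *Csf1r*, the receptor for the growth factor that macrophages need, averaged 614 in Cre+ brain and 222.1 in control brain (log2 difference 1.41, adjusted p = 0.00177), and *C1qb*, a complement chain, 256.2 in Cre+ brain and 72.95 in control brain (1.61, adjusted p = 0.00177). *Tyrobp*, a signalling adaptor of myeloid receptors, differed by 1.58 (adjusted p = 0.00243) and *Ly86*, a partner of a toll-like receptor homologue, by 1.28 (adjusted p = 0.00243). When any 1 array was left out, 9 or 10 of the list were called, and against control replicates 1 and 4 alone 4 were. The count was 0 with Cre+ replicates 3 and 4 alone, with a replicate block, without scaling or by the methods' t-test with unequal variances. Over the whole array, 3 probe sets were called higher without scaling and 0 in the rest of these alternatives. A count of 0 there therefore says little about the list, whose mean was as high on Cre+ replicates 3 and 4 (1.04 and 0.93) as on 1 and 2 (0.95 and 1.02).

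*Ms4a6b*, *Ms4a6c*, *Ms4a6d* and *Ms4a7* were higher on the same arrays as this list, and the part of macrophage number in their levels was not tested. Minus the list median, the log2 difference was 0.58 for *Ms4a7*, -0.11 for *Ms4a6b*, -0.33 for *Ms4a6d*, -0.37 for *Ms4a6c* and -1.19 for *Ms4a3*. These gaps depend on the added constant, which understates dim genes the most. With a constant of 1, the log2 differences of *Ms4a6b* and *Ms4a6d* were both 1.34. In RNA of whole tissue, more cells of a type and more RNA of a gene per cell cannot be told apart.

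Some other markers of border-associated macrophages, though not all, were much higher on Cre+ replicates 1 and 2 than on 3 and 4, a division not seen in *Ms4a7* and described here without a test. Of 12 such markers, all measured, limma called 0, with 5 at an unadjusted p under 0.05 (against 6.97% of all genes), and the median log2 difference was 0.64. *Pf4*, a platelet factor also made by these cells, read 443.5, 290.9, 136.5 and 141 on Cre+ arrays and 93.9, 131.9, 126.6 and 159.9 on controls. *Dab2*, an endocytic adaptor, read 436.8, 469.6, 109.7 and 110.4 on Cre+ arrays and 62.7, 76.8, 66.9 and 93 on controls. *F13a1*, *Mrc1* and *Lyve1* likewise had their highest values on Cre+ replicates 1 and 2. *Mrc1*, the mannose receptor, read 234.1, 130.8, 27.6 and 33.9 on Cre+ arrays and 16, 12.1, 5.7 and 29.2 on controls. *Lyve1*, a hyaluronan receptor, was at 151.5 and 48.6 on Cre+ replicates 1 and 2 and at or below 2.3 on the other 6 arrays, and *Cd163* was at or below 1.8 on all 8. For other markers the division was slight or absent. *Stab1*, a scavenger receptor, read 152.1, 92.8, 77.4 and 81.1 on Cre+ arrays and 39.4, 56.3, 35.6 and 56.8 on controls, so that every Cre+ array was above every control. *Cd36*, a fatty acid receptor, was likewise apart on all arrays, with 18.6, 28.6, 21.1 and 19 on Cre+ arrays and 15.8, 0.6, 13.7 and 14.6 on controls, while *Folr2*, *Cbr2* and *Siglec1* overlapped between the genotypes without this division. In all, 4 of the 12 markers, *Dab2* and *F13a1* among them, had every Cre+ array above every control, against 2.48% of all genes.

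Cre+ replicates 1 and 2 are also the arrays with mesenchymal signal. *Ms4a7* did not share this split, with 73.2 and 81.7 on those arrays and 78.6 and 82.7 on Cre+ replicates 3 and 4. With Cre+ replicates 3 and 4 alone against the controls, the log2 difference of *Ms4a7* was 1.78, of *Ms4a6b* 1.03, of *Ms4a6c* 0.71 and of *Ms4a6d* 1.11. The list of 12 mesenchyme markers had a median of 1.11 with 0 called (1 unadjusted) and a summed intensity of 687.4 to 14917.4 on Cre+ arrays and 636.4 to 1530.3 on controls. Hindbrain Hox genes, markers of position along the brain, had a median of 1.27 over 8 measured of 9, with 0 called and 0 unadjusted. Their highest mean was on Cre+ replicate 3, and whether the tissue taken differed between arrays was not tested. Against control replicates 1 and 4, which have the male signal of the Cre+ arrays, the log2 difference was 1.56 for *Ms4a7*, 0.98 for *Ms4a6b*, 0.76 for *Ms4a6c* and 0.77 for *Ms4a6d*.

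**Figure D4:**
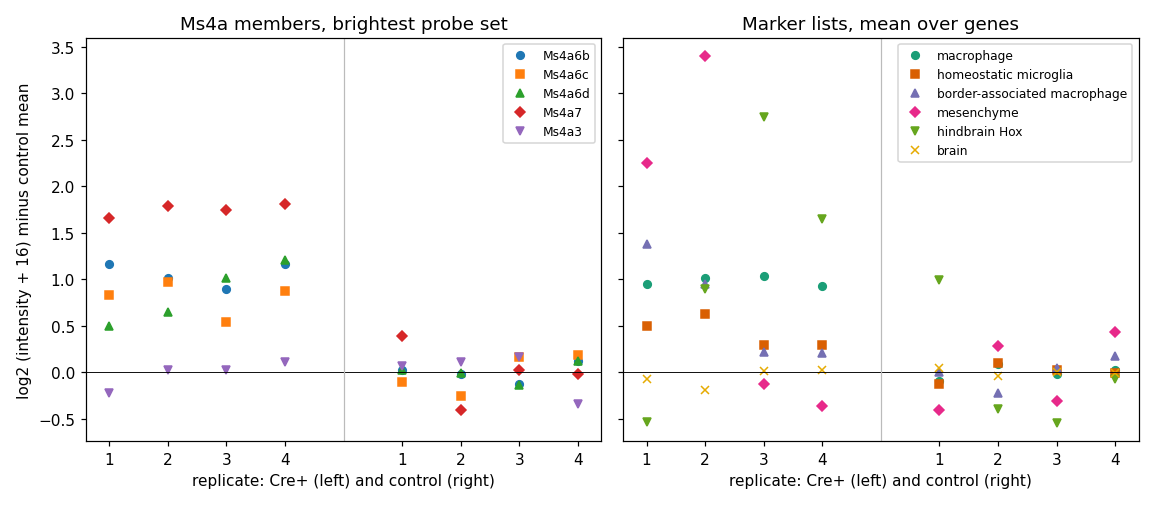
Log2(intensity + 16) minus the control mean on each array, *Cre+, Rest GTi/GTi* replicates left and control replicates right, for the brightest probe set of each member (left panel) and the mean over the genes of 6 marker lists (right panel). *Ms4a7* and the macrophage list (0.93 to 1.04) are level over the Cre+ arrays, while the border-associated macrophage list (1.38, 0.95, 0.22 and 0.21) and the mesenchyme list (2.25, 3.40, -0.13 and -0.36) are not.

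Mature microglia are set apart from other macrophages by a further set of genes. Of 10 such markers, all measured, 1 was called higher (*Fcrls*, an Fc receptor-like gene, 177.2 in Cre+ brain and 47.32 in control brain, log2 difference 1.62, limma adjusted p = 0.00312), with 4 unadjusted and a median of 0.41. With Cre+ replicates 3 and 4 alone, a replicate block or the methods' t-test with unequal variances, 0 of the 10 were called. In these alternatives 0 probe sets of the whole array were called higher, so this says nothing about the list. On 3 of the 10, *Fcrls*, *Siglech* and *Gpr34*, every Cre+ array was above every control, against 2.48% of all genes. *Siglech* differed by 0.72 (limma adjusted p = 0.459) and *Gpr34* by 0.62 (adjusted p = 0.268), both dim. Of the 10 differences, 7 were above 0 and 3 below. *Sall1*, a transcription factor of microglia that is also made in neural progenitors, differed by -0.12. *Olfml3* and *Tmem119* differed by 0.70 and 0.67, with their highest values on Cre+ replicates 1 and 2, the arrays with mesenchymal signal. *P2ry12*, *P2ry13*, *Slc2a5* and *Trem2* differed by 0.16, 0.20, -0.06 and -0.23. For *Sall1* and all the genes named after it the groups overlapped.

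*Ms4a3* belongs to the cells that the list of granulocyte-monocyte progenitor and granulocyte markers describes. Of 11 listed, 10 were measured, 0 were called by limma (0 unadjusted), the median was 0.03, and the summed intensity was 214.4 to 255.6 on Cre+ arrays and 216.4 to 253.1 on controls. *Prtn3*, a neutrophil protease, differed by -0.12 (SE 0.12, limma adjusted p = 0.901). Monocyte markers (7 measured of 9) had a median of 0.08 with 0 called (1 unadjusted). The lists of cells that use other *Ms4a* genes were also without a call: B cells (8 of 9 measured, median -0.0034), mast cells and basophils (7, 0.07) and T and NK cells (8 of 9, -0.08), each with 0 unadjusted. Erythroid markers (7 of 8 measured) had a median of 0.08 with 0 called and 0 unadjusted. The 9 brain markers had a median of -0.07, with 0 unadjusted.

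The genes whose levels ran most like those of *Ms4a6b* and *Ms4a7* were sought among 12063 genes with a mean of 32 or more. Pearson's r over the 8 arrays describes likeness only. The arrays share the 2 genotypes, so a high r mainly says that a gene separates them too. Highest for *Ms4a6b* were *Csf1r* (0.99), *Fcer1g*, an Fc receptor chain (0.98), *Lgmn*, a lysosomal protease (0.98), *C1qb* (0.97), *Pycard*, an inflammasome adaptor (0.97), *Cd53*, a leukocyte tetraspanin (0.97), *Cdkn1a*, a cell cycle inhibitor (0.97), and *Lyz1*, a lysozyme (0.97). After the genotype means were removed, these r ran from -0.04 to 0.46.

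For *Ms4a7* the highest was *Apoe*, a lipid carrier made by glia and macrophages, with r = 0.995 and 0.96 with the genotype means removed. *Apoe* averaged 401.7 in Cre+ brain and 99.44 in control brain, a log2 difference of 1.91. Next came *Acyp2*, an acylphosphatase (0.99), although it differed by only 0.11 between genotypes, with means of 184.2 in Cre+ brain and 169.6 in control brain. The others were *Ccng1*, cyclin G1 (0.98), *Cdkn1a* (0.98), *Ctsd*, a lysosomal protease (0.97), and *Lgmn*, *Tyrobp* and *C1qb* (0.97 each). With the genotype means removed, r was 0.84 for *Acyp2*, 0.74 for *Ccng1*, 0.51 for *Ctsd*, 0.45 for *Cdkn1a*, 0.15 for *Tyrobp*, 0.10 for *Lgmn* and 0.07 for *C1qb*. *C1qb*, *Cdkn1a* and *Lgmn* thus stand among the 8 nearest of both genes. All these genes were picked for the highest r among 12063 on the same arrays. That choice also favours high r with the genotype means removed.

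Among the members, the main probe sets of *Ms4a6b* and *Ms4a7* had r = 0.96 over the 8 arrays and 0.06 with the genotype means removed, and *Ms4a6b* and *Ms4a6c* had 0.93 and 0.35. The 2 separated probe sets of *Ms4a6d* had 0.87 and -0.08. With *Ms4a3*, the main probe sets of *Ms4a6b*, *Ms4a6c* and *Ms4a7* had -0.15, -0.18 and -0.03. Within a genotype, 4 arrays leave these values with little precision.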

How the data were processed

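The deposited table holds 1 linear intensity value per probe set and array, starting at 0. The authors' methods name quality assessment and RMA normalization with AffyPLM and a t-test on log2 values with Benjamini-Hochberg adjustment in GeneSifter, and RMA stands in the labels with no version. Array medians of the deposited values ran from 40.9 to 68, unlike RMA output, and the step that made the values is not given in the sources used here. The 64 Affymetrix control probe sets of 45101 were left out. The remaining 45037 were quantile normalized, 16 was added, and log2 values were fitted with limma 3.58.1 (lmFit and eBayes, R 4.3.3), adjusted by Benjamini-Hochberg over all probe sets and called at 0.05. The test was tried on simulated data first. Probe sets were named by the platform annotation, with symbols updated to RefSeq (1 gene for 34945, several for 932, none for 9160), and a gene is its probe set with the highest mean.

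Members, lists and tests were chosen with earlier results of these data known. The rule for named genes took all member probe sets, all measured other *Ms4a* and Tmem176 genes, the 8 genes with the highest r with *Ms4a6b* and with *Ms4a7*, up to 4 genes of the highest mean from each list, and genes up to 5 places from the cluster. *Rest*, *Xist*, *Mrc1*, *Lyve1*, *Cd163*, *Cd36*, *Folr2*, *Cbr2*, *Siglec1*, *Siglech* and *Gpr34* are named outside this rule, with their values known. So are *P2ry12*, *P2ry13*, *Slc2a5* and *Trem2*. The number of arrays limits the precision. Alternatives were the methods' t-test, eBayes with trend and robust, constants of 1 and 50, 3 other scalings, filters on probe sets, a mean over the probe sets of each gene, a replicate block, *Eif2s3y* as a covariate, subsets of arrays and leaving out each array.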

Additional observations from a re-analysis of the deposited data

Results flagged for a closer look

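In 44 groups of 4 arrays, Dixon's ratio of the gap to the range marked 6 in which 1 array stood far from the other 3, and chance marks about 1 group in 20. Of these, 1 was a member: on *Ms4a6d* 1419598_at, control replicate 4 read 4.8 and the other controls 0.6 to 0.8 (ratio 0.943). The other 5 were dim probe sets of other *Ms4a* genes. On *Ms4a2*, Cre+ replicate 2 read 7.6 and the other Cre+ arrays 0.4 to 1.2 (0.873), and on *Ms4a4b*, Cre+ replicate 4 read 9.7 and the others 0.4 to 1.4 (0.865). Control replicate 1 was the distant array for *Ms4a1* (2.3, the others 12 to 14, ratio 0.862), *Ms4a4c* (4.6, the others 16.3 to 17.9, ratio 0.902) and *Ms4a13* (9.7, the others 1.1 to 2.2, ratio 0.845). The cause was not tested.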

How the results depend on the processing

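The count of 4 member genes with every Cre+ array above every control was 3 with the filter on a mean of 32, which keeps 3 member genes, and 3 with the mean of all probe sets, where *Ms4a6c* overlapped, and 4 under the other alternatives. Leaving out arrays could not lower it. The other tests, the replicate block, the covariate and the other constants keep the order of the arrays, so they could not change it. In every alternative, 0 other *Ms4a* genes were called. The filter on a mean of 32 kept none of them. With the replicate block, the methods' t-test with unequal variances or Cre+ replicates 3 and 4 alone, 0 probe sets of the whole array were called. In these alternatives the count of 0 therefore says nothing about the family. The log2 difference ran from 0.72 to 1.34 for *Ms4a6b* 1418826_at, 1.05 to 2.67 for *Ms4a7* 1424754_at, 0.50 to 1.12 for *Ms4a6c* 1450234_at, 0.47 to 1.34 for *Ms4a6d* 1419599_s_at and 0.50 to 3.36 for *Ms4a6d* 1419598_at, with the ends set by constants of 50 and 1. That of *Ms4a3* ran from -0.13 to 0.13 and that of *Ms4a6c* 1457725_at from -0.25 to 0.25. The median over the member genes (0.84) was 1.34 with a constant of 1, 0.50 with 50, 1.06 with a mean of 32 or more and without probe sets of the suffixes _s_at, _x_at and _a_at, 0.66 with the mean of all probe sets and 1.03 with Cre+ replicates 3 and 4 alone. The 60 probe sets called higher became 38 with a constant of 1, 20 and 0 by the methods' t-test with equal and unequal variances, 3 without scaling, 17 with *Eif2s3y* as a covariate, 8 with control replicates 1 and 4 alone, 0 with Cre+ replicates 3 and 4 alone, and 28 to 42 when each array was left out. The 3 called lower became 6 with trend and robust or a constant of 1, 1 with cyclic loess or a mean of 32 or more, 0 with either t-test, a constant of 50, no scaling, the suffixes left out and either subset of arrays, and 0 to 2 when each array was left out. No strong pairing by replicate number was seen: residual correlations of same-numbered arrays ran from -0.13 to 0.01 and of the others from -0.06 to 0.11. These values cannot tell whether a weaker pairing exists. With the replicate block, 0 probe sets were called in either direction. The differences of the members were as without it, which the design fixes, since each replicate number holds 1 array of each genotype. The cause of these changes was not tested beyond the fewer arrays of the subsets. Dim signal limits 5 of the 10 member probe sets, whose means lie below the constant.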
